A study of Mus musculus with 2 samples.

Results

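The platelet-derived growth factor (PDGF) family was followed in 2 single-cell RNA-seq libraries of amputated mouse digits. The set held the ligand genes Pdgfa, Pdgfb, Pdgfc and Pdgfd and the receptor genes Pdgfra and Pdgfrb, 6 of the 33696 genes listed in both libraries, chosen by gene symbol alone. Hindlimb digits 2 and 4 of ICR mice were amputated through the middle phalanx (P2) at PN3, a bead soaked in FGF8 (500 ng/µl) or in 0.1% BSA was placed in the wound at PN7, and tissue was taken 24 h later, at PN8. Each condition was 1 library made from a pool of 20 digits of 5 mice, males and females together, so an FGF8 pool can include digits that would not have gone on to regenerate. With 1 library per condition no difference between FGF8 and BSA could be tested, and every interval below is a 95% counting interval that covers counting error only.

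PDGF ligands are secreted dimers that bind receptor tyrosine kinases on mesenchymal cells. The A and C chains act through the alpha receptor, the B chain binds both receptors, and the D chain acts mainly through the beta receptor. In development and repair the B chain from endothelium recruits pericytes and vascular smooth muscle through the beta receptor, and the alpha receptor marks connective tissue fibroblasts and their progenitors. The C and D chains are secreted in a latent form, with a CUB domain that proteases must remove.

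The deposited matrices held 3703 barcodes with 67739460 UMIs for BSA and 7249 barcodes with 124889213 UMIs for FGF8, and 6 barcode sequences occurred in both. After filtering, 3252 BSA and 6715 FGF8 cells were kept, with median depths of 15377 and 12251 UMIs. Among cells that could be called by Xist or Y-linked genes, 79.3% of the BSA cells and 24.6% of the FGF8 cells were female, so the sex of the pools cannot be told apart from the bead unless values are given within each sex. Clustering without the 6 genes gave 19 clusters, of which 17 carried a name from marker lists, and 11 cell types had enough cells in both libraries to be compared. Clusters of the fibroblast-like class were named partly by exclusion, because most fibroblast markers were detected in nearly all clusters. The cluster called tenocyte-like, with Fmod and Scx among its leading genes, scored 4.15 on the tenocyte list and 4.21 on the osteoblast list, of which no gene was among the leading 10. Levels are given as UMIs per 1000000 UMIs of the cell type and library (CPM), and the summed osteoblast markers of the tenocyte-like cluster were 980 CPM in BSA and 1755 CPM in FGF8, against 2288 and 2394 CPM for the tenocyte markers. In chondrocyte-like cells the summed chondrocyte markers reached 61181 CPM in BSA and 45945 CPM in FGF8.

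The fibroblast-like class held 1192 BSA and 2470 FGF8 cells in 5 clusters, and the clusters that held most of it differed between the libraries. In BSA the largest was cluster 1, led by Chodl and Sema3a, with 470 cells, and in FGF8 it was cluster 0, led by Prg4, Il1rl1 and Mmp3 together with cell cycle genes, with 1140 cells. Cluster 0 had 283 BSA cells and cluster 1 had 660 FGF8 cells. Cluster 5, led by Agtr2 and Lpl, had 239 and 381 cells, cluster 10, led by Coch and Nrg1, had 162 and 211, and cluster 17, led by Corin, had 38 and 78. Cluster 0 scored 2.08 on the tenocyte and 1.21 on the fibroblast list (mean log2 ratio to the median cluster), and cluster 17 scored 2.03 on the smooth muscle and 0.48 on the fibroblast list, with no marker of these other lists among their 10 leading genes. The 10 fibroblast markers summed to 48640 CPM in BSA and 24448 CPM in FGF8 fibroblast-like cells.

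**Figure D1:**
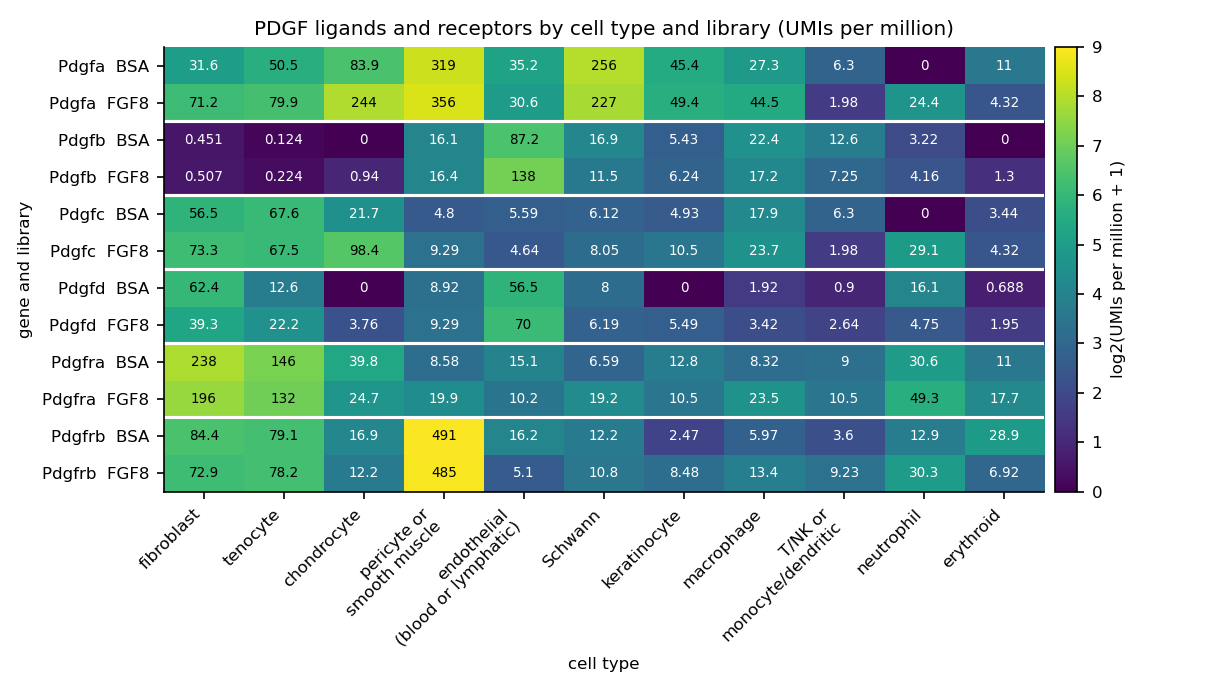
Level of each PDGF gene (rows, 1 per library) in each compared cell type (columns), in UMIs per 1000000 UMIs of that cell type and library. Lighter colours are higher. Pdgfrb and Pdgfa were highest in pericyte or smooth muscle-like cells, Pdgfb in endothelial cells and Pdgfra in fibroblast-like cells, in both libraries.

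Pdgfa (ENSMUSG00000025856, chromosome 5, 138961758 to 138983435, minus strand, GRCm39) encodes the A chain. In pericyte or smooth muscle-like cells Pdgfa was at 319 CPM in BSA (299 to 341) and 356 CPM in FGF8 (337 to 376), the highest level of any compared type in either library. In Schwann-like cells it was at 256 CPM and 227 CPM. Chondrocyte-like cells came next in BSA at 83.9 CPM, and in FGF8 their level of 244 CPM (227 to 261) overlapped the interval of the Schwann-like cells. Tenocyte-like cells had 50.5 CPM and 79.9 CPM, and fibroblast-like cells 31.6 CPM (29.5 to 33.8) and 71.2 CPM (69.0 to 73.3). The gene was thus present at its highest levels in vessel wall, nerve sheath and skeletal cells rather than in the large fibroblast-like class.

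As the largest class, with 36.7% and 36.8% of the cells, the fibroblast-like cells held 26.4% of the Pdgfa UMIs of the kept BSA cells and 49.1% of those of the FGF8 cells. The share held by pericyte or smooth muscle-like cells was 29.2% in BSA and 15.2% in FGF8, and that of Schwann-like cells 17.1% and 8.57%. Within the fibroblast-like class, the 119 BSA and the 247 FGF8 cells with most Pdgfa UMIs held 71.7% and 67.3% of them. The corresponding shares for Pdgfra, a more abundant message there, were 28.0% and 32.9%. Cells were ranked by the gene's own UMIs, so this share rises for a sparse gene and was 100% for Pdgfb in both libraries. The shares therefore do not separate uneven expression from level or depth.

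Between the libraries, Pdgfa in fibroblast-like cells was 2.25-fold higher in FGF8, a log2 ratio of 1.17 (1.06 to 1.28). It was the 1 member of 6 past 2-fold in this class, where 13.4% of all 19399 genes with at least 10 UMIs were past 2-fold in either direction. The log2 ratio was 0.92 in female-called cells and 1.85 in male-called cells. Within the clusters the ratio over both sexes was smaller: 0.55 (0.43 to 0.68) in cluster 0, 0.68 (0.33 to 1.03) in cluster 1, 0.32 (-0.05 to 0.70) in cluster 5 and 0.37 (-0.38 to 1.13) in cluster 10. In cluster 0 it was 0.20 (0.03 to 0.38) among female-called and 1.44 (1.10 to 1.79) among male-called cells, so the pooled value stands between unlike ones. Cluster 0 had 67.4 CPM in BSA and 99.0 CPM in FGF8, while clusters 1, 5 and 10 lay between 11.0 and 21.5 CPM in both libraries. With the clusters weighted by the same cell numbers in both libraries, a calculation added after the data were seen, Pdgfa was at 34.5 CPM in BSA and 50.2 CPM in FGF8, a log2 ratio of 0.54.

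Cells with a UMI of the proliferation genes Mki67 or Top2a made up 24.6% of the BSA and 54.1% of the FGF8 fibroblast-like cells. Over the whole class Pdgfa was at 49.9 CPM in BSA and 77.0 CPM in FGF8 cells with such a UMI, and at 22.3 and 58.4 CPM in cells without one. In cluster 0 of FGF8 the Pdgfa level was 89.1 CPM in cells with such a UMI and 179 CPM in cells without one, and in BSA it was 65.0 and 72.9 CPM. Cells with a proliferation UMI thus had the higher Pdgfa level over the class but not within cluster 0. Cells with such a UMI were also deeper, at median depths of 34766 against 26956 UMIs in cluster 0 of FGF8.

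**Figure D2:**
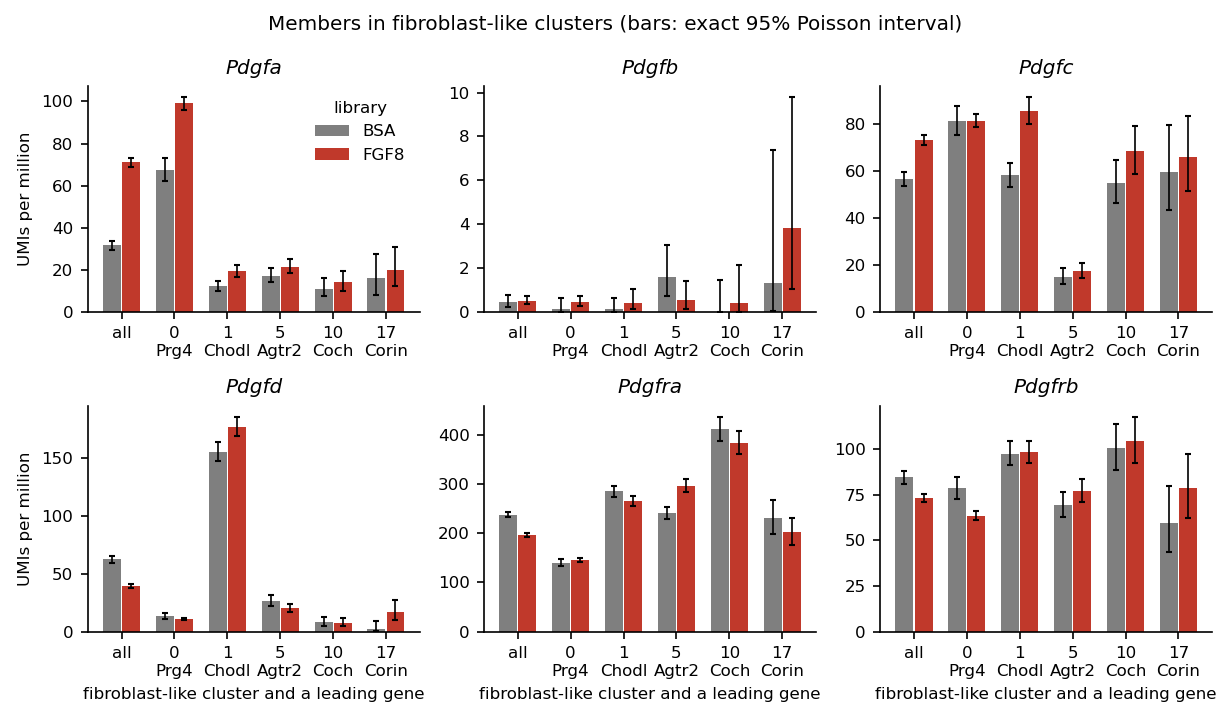
Level of each PDGF gene in the fibroblast-like clusters, in CPM, for BSA and FGF8; error bars are exact 95% Poisson intervals. Pdgfa was highest in cluster 0 (67.4 and 99.0 CPM) and Pdgfd in cluster 1 (155 and 177 CPM) in both libraries.

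In chondrocyte-like cells Pdgfa was 2.91-fold higher in FGF8, a log2 ratio of 1.54 (1.28 to 1.81), from 139 UMIs in 67 BSA cells and 778 UMIs in 142 FGF8 cells. Female-called cells had a ratio of 2.16 and male-called cells one of 1.08. Of the 5 members tested in this class 3 were past 2-fold, all higher in FGF8, against 16.6% of all genes. One of these, Pdgfd, had 0 UMIs in BSA and 12 in FGF8, so its ratio is a lower bound. The chondrocyte-like cells also differed in what else they carried: the summed fibroblast markers were 10238 CPM in BSA and 4287 CPM in FGF8, and the summed macrophage markers 9.05 CPM, with 4 of 8 markers at 0, and 129 CPM. The part of these in the Pdgfa values was not tested.

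Tenocyte-like cells had a Pdgfa log2 ratio of 0.66 (0.48 to 0.84), 0.85 among female-called cells and 0.88 among male-called cells. None of the 5 members tested there was past 2-fold, against 8.62% of all genes. The libraries lay closer together in the types ranked 1 and 2 for Pdgfa in BSA. There the log2 ratio was 0.16 (0.04 to 0.28) in pericyte or smooth muscle-like cells and -0.17 (-0.33 to -0.01) in Schwann-like cells. Keratinocyte-like cells had 45.4 and 49.4 CPM, a ratio of 0.12 (-0.24 to 0.49). Macrophage-like cells had 27.3 and 44.5 CPM.

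**Figure D3:**
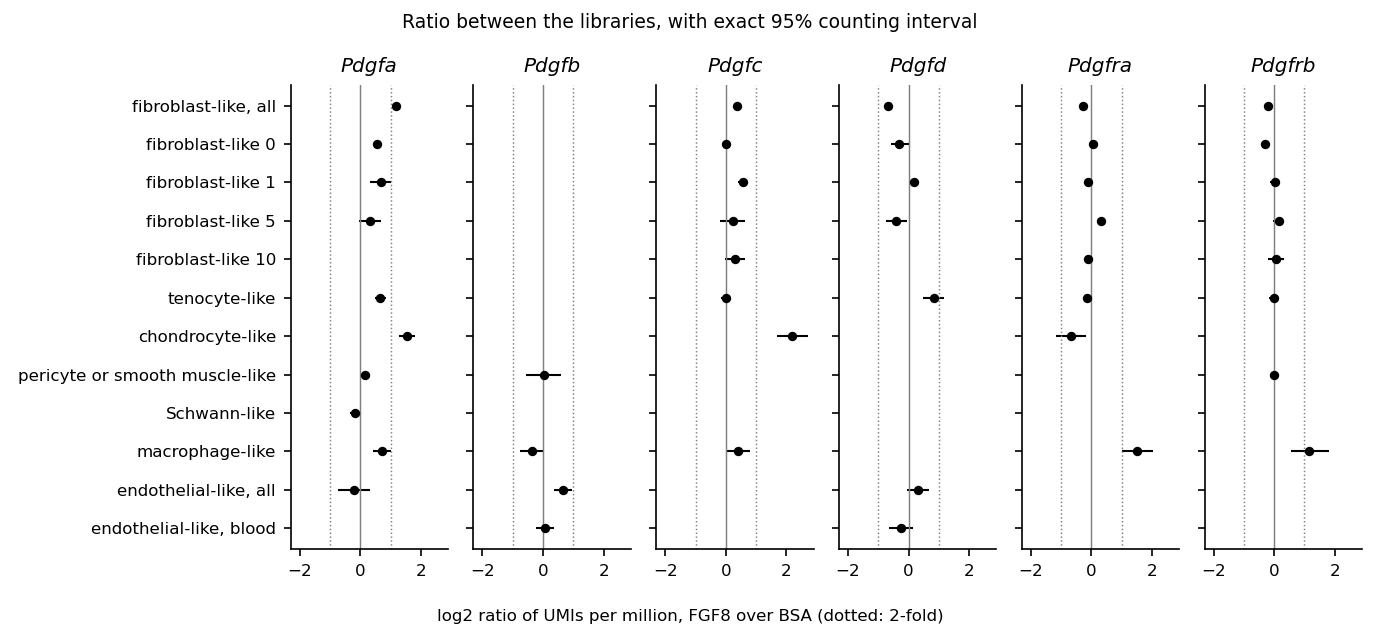
Log2 ratio of CPM, FGF8 over BSA, for each PDGF gene by cell type, with exact 95% counting intervals; dotted lines mark 2-fold. The intervals of Pdgfa in fibroblast-like (1.17) and chondrocyte-like cells (1.54) and of Pdgfc in chondrocyte-like cells (2.18) lie above 2-fold, while Pdgfrb in pericyte or smooth muscle-like cells (-0.02) lies at 0.

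Pdgfb (ENSMUSG00000000489, chromosome 15, 79880009 to 79899181, minus strand) encodes the B chain and was an endothelial message in both libraries. Endothelial cells, blood and lymphatic together, had 87.2 CPM in BSA (74.1 to 102) and 138 CPM in FGF8 (123 to 154). Macrophage-like cells were next, at 22.4 and 17.2 CPM, and their intervals overlapped those of Schwann-like cells (16.9 and 11.5 CPM) in BSA and of pericyte or smooth muscle-like cells (16.1 and 16.4 CPM) in FGF8. Fibroblast-like cells had 0.451 CPM and 0.507 CPM, from 12 and 30 UMIs. Endothelial cells were 121 of 3252 cells in BSA and 142 of 6715 in FGF8, yet they held 40.3% and 46.6% of the Pdgfb UMIs. These shares were 26.3% and 39.0% under a stricter cell filter (over 500 but under 6000 genes, mitochondrial UMIs below 10%) and 59.6% and 60.0% with no upper limit on detected genes. Macrophage-like cells held 27.1% and 23.7%.

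The endothelial log2 ratio of Pdgfb was 0.66 (0.37 to 0.95), and it differed in sign between female-called (0.92) and male-called cells (-0.32). Reclustering of the endothelial cells, added after the data were seen, separated a blood endothelial sub-cluster of 57 BSA and 132 FGF8 cells from a lymphatic one, with Prox1 and Mmrn1, of 48 and 10 cells. A further 16 cells, all BSA, were shallow, with a median of 2691 UMIs. In the blood endothelial sub-cluster Pdgfb was at 143 CPM in BSA (120 to 168) and 150 CPM in FGF8 (133 to 168), a log2 ratio of 0.07 (-0.23 to 0.37), and in the lymphatic one it was at 16.0 and 28.3 CPM. After thinning each cell to 2000 UMIs, however, 14.8% of 54 BSA (6.62% to 27.1%) and 34.1% of 123 FGF8 blood endothelial cells (25.8% to 43.2%) had a Pdgfb UMI, where the unthinned shares were 63.2% and 72.7%. In blood endothelial cells the summed level thus lay close together between the libraries and the thinned share of cells did not. Over the whole class the log2 ratio was 1.09 with each cell counted equally and 2.08 (1.08 to 3.23) after thinning, but 0.21 with no upper limit on detected genes. Of the 6 members, 1 was past 2-fold in endothelial cells, against 11.6% of all genes: this was Pdgfrb, lower in FGF8, with 29 and 11 UMIs. In the blood endothelial sub-cluster 4 of 6 were past 2-fold, against 9.5% of all genes: Pdgfa (16 and 63 UMIs), Pdgfc (1 and 10) and Pdgfra (3 and 21) were higher in FGF8, and Pdgfrb (17 and 11) was lower.

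Pdgfc (ENSMUSG00000028019, chromosome 3, 80943668 to 81121473, plus strand) encodes the C chain, a latent ligand of the alpha receptor, and was a connective tissue message. Tenocyte-like cells had 67.6 CPM in BSA and 67.5 CPM in FGF8, a log2 ratio of 0.00 (-0.17 to 0.17). Fibroblast-like cells had 56.5 CPM (53.6 to 59.4) and 73.3 CPM (71.1 to 75.5), a log2 ratio of 0.38 (0.29 to 0.46). They held 65.0% and 73.1% of all Pdgfc UMIs. Within the class the level depended on the cluster: cluster 5, led by Agtr2 and Lpl, had 14.9 and 17.5 CPM, and clusters 0, 1 and 10 lay between 54.9 and 85.6 CPM. The log2 ratio was 0.00 (-0.12 to 0.12) in cluster 0 and 0.56 (0.40 to 0.72) in cluster 1, and 0.23 with the same cluster weights in both libraries.

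Chondrocyte-like cells had the largest Pdgfc difference among the compared types in which both libraries had at least 10 UMIs of the gene. The level was 21.7 CPM in BSA (15.2 to 30.1) and 98.4 CPM in FGF8 (87.8 to 110), from 36 and 314 UMIs, a log2 ratio of 2.18 (1.68 to 2.72). Female-called cells had a ratio of 2.86 and male-called cells one of 1.73, the latter from 7 BSA UMIs. A Pdgfc UMI was found in 23.9% of the BSA and 64.1% of the FGF8 cells, or in 6.67% and 17.4% after thinning. In erythroid-like cells, which are not a known source, the gene was at 3.44 and 4.32 CPM, but in neutrophil-like cells it was at 0 and 29.1 CPM.

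Pdgfd (ENSMUSG00000032006, chromosome 9, 6168240 to 6379265, plus strand) encodes the D chain, a latent ligand of the beta receptor. Fibroblast-like cells had 62.4 CPM in BSA (59.4 to 65.5) and 39.3 CPM in FGF8 (37.7 to 40.95), and endothelial cells 56.5 CPM (46.0 to 68.6) and 70.0 CPM (59.3 to 82.2). Fibroblast-like cells held 83.3% and 77.0% of the Pdgfd UMIs. The order of these top types was therefore unresolved in BSA, where the intervals overlapped, and endothelial cells were higher in FGF8.

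Within the fibroblast-like class Pdgfd was concentrated in cluster 1, led by Chodl and Sema3a, at 155 CPM in BSA (147 to 163) and 177 CPM in FGF8 (168 to 185). The levels in clusters 0, 5 and 10 were between 7.68 and 26.6 CPM. Over the whole class the log2 ratio was -0.67 (-0.76 to -0.57), or -1.30 among female-called and -0.62 among male-called cells. It was, however, 0.19 (0.09 to 0.29) within cluster 1 and 0.12 with the same cluster weights in both libraries. Within cluster 1 the ratio was -0.29 (-0.51 to -0.07) among female-called cells and 0.33 (0.15 to 0.52) among male-called cells. The lower class level in FGF8 thus went with a smaller part of the class lying in cluster 1, and within that cluster the direction differed between the sexes. In blood endothelial cells alone Pdgfd was at 90.6 CPM (72.8 to 111) and 76.1 CPM (64.4 to 89.4). Tenocyte-like cells, at 12.6 and 22.2 CPM, had a log2 ratio of 0.82 (0.47 to 1.18).

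Pdgfra (ENSMUSG00000029231, chromosome 5, 75311994 to 75358876, plus strand) encodes the alpha receptor. It was highest in fibroblast-like cells, at 238 CPM in BSA (232 to 244) and 196 CPM in FGF8 (192 to 200), followed by tenocyte-like cells at 146 and 132 CPM. Chondrocyte-like cells had 39.8 and 24.7 CPM. Fibroblast-like cells held 78.5% of the Pdgfra UMIs in BSA and 81.7% in FGF8. A Pdgfra UMI was present in 90.5% and 90.2% of fibroblast-like cells, and in 38.2% and 32.9% after thinning. In keratinocyte-like cells, which should lack the gene, the shares were 4.00% and 10.8%, or 1.72% and 1.91% after thinning, at median depths of 6418 and 12835 UMIs against 15377 and 12251 over all kept cells.

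The log2 ratio of Pdgfra in fibroblast-like cells was -0.28 (-0.33 to -0.24), and 0.01 with the same cluster weights in both libraries. Cluster 10, led by Coch and Nrg1, had the highest level, at 411 CPM (387 to 437) and 384 CPM (361 to 409), and cluster 0 the lowest of the larger clusters, at 140 CPM (133 to 148) and 146 CPM (142 to 150). Clusters 1 and 5 lay between, at 241 to 297 CPM. Each of these clusters had a log2 ratio between -0.10 and 0.30.

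Pdgfrb (ENSMUSG00000024620, chromosome 18, 61178212 to 61218133, plus strand) encodes the beta receptor. Pericyte or smooth muscle-like cells had 491 CPM in BSA (466 to 517) and 485 CPM in FGF8 (463 to 508), a log2 ratio of -0.02 (-0.12 to 0.08). Fibroblast-like cells had 84.4 and 72.9 CPM, and tenocyte-like cells 79.1 and 78.2 CPM, with overlapping intervals in both libraries. All other compared types were at or below 30.3 CPM. Pericyte or smooth muscle-like cells held 30.9% and 23.9% of the Pdgfrb UMIs, and fibroblast-like cells 48.5% and 58.0%.

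Reclustering of the pericyte or smooth muscle-like cells, also added after the data were seen, gave 3 sub-clusters. The one with the highest smooth muscle markers (20337 CPM summed, against 6937 and 4963 CPM) had 318 CPM of Pdgfrb in BSA (287 to 352) and 293 CPM in FGF8 (262 to 327). The one with the highest levels of the pericyte genes Kcnj8 and Higd1b had 623 CPM (580 to 668) and 599 CPM (564 to 636). The third, with Mki67 at 446 CPM and 20 BSA and 45 FGF8 cells, had 576 and 490 CPM. The beta receptor was thus lowest in the sub-cluster with the most smooth muscle markers, in both libraries. Pdgfa was at 324, 356 and 301 CPM in BSA and 298, 377 and 382 CPM in FGF8, in the order of smooth muscle, Mki67 and pericyte sub-cluster. The Pdgfa level was lowest in the smooth muscle sub-cluster in FGF8, and no order was read in BSA, where the levels lay between 301 and 356 CPM.

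The receiving cells fell into separate patterns. Of the UMIs of both receptors, Pdgfra made up 73.8% in BSA and 72.9% in FGF8 fibroblast-like cells, 64.9% and 62.8% in tenocyte-like cells, and 1.72% and 3.95% in pericyte or smooth muscle-like cells. These shares compare cell types with each other and not the receptors, whose messages may be captured with unequal efficiency. After thinning, 375 of 1187 BSA fibroblast-like cells had Pdgfra alone, 94 had Pdgfrb alone and 78 had both. In FGF8 the numbers were 665, 218 and 148 of 2469. Cells with both made up 6.57% and 5.99%, where the product of the separate shares was 5.53% and 4.88%. In pericyte or smooth muscle-like cells 114 of 181 BSA and 170 of 276 FGF8 cells had Pdgfrb alone, and 0 and 6 had both.

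**Figure D4:**
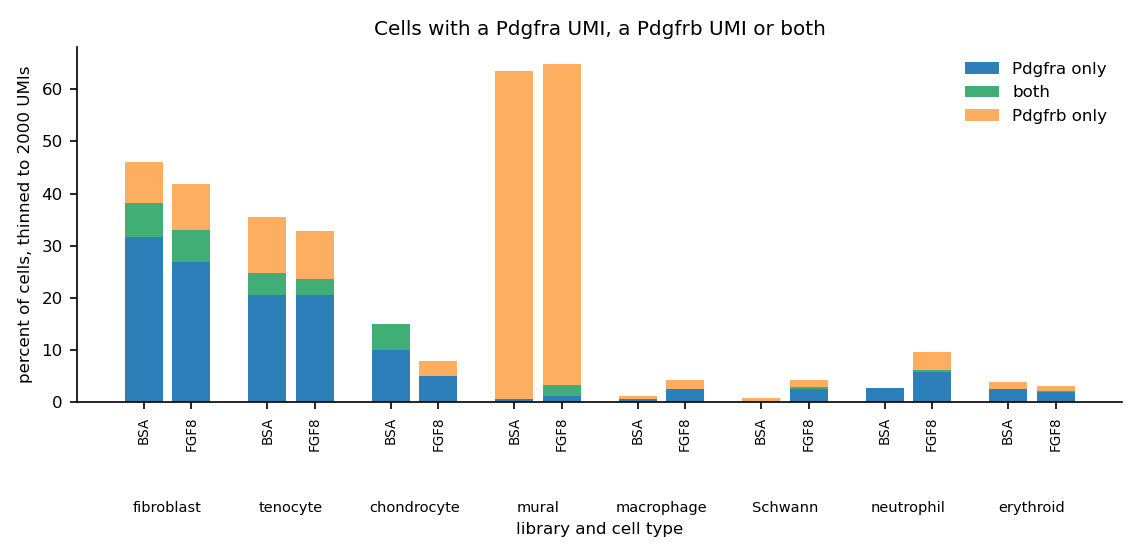
Percent of cells with a Pdgfra UMI only, a Pdgfrb UMI only or both after thinning to 2000 UMIs, by library and cell type; mural stands for pericyte or smooth muscle-like. Fibroblast-like cells had Pdgfra alone in 31.6% (BSA) and 26.9% (FGF8), and mural cells had Pdgfrb alone in 63.0% and 61.6%.

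Ligand and receptor messages also met in the same cells. Of the fibroblast-like cells with a Pdgfa UMI, 93.1% in BSA and 87.5% in FGF8 also had a Pdgfra UMI, without thinning, where 90.5% and 90.2% of all fibroblast-like cells did. After thinning, 15 BSA and 36 FGF8 cells had both, or 30.6% and 17.6% of those with a Pdgfa UMI. Over the class these shares lay below the 38.2% and 32.9% of all fibroblast-like cells, but within clusters the direction was mixed. In cluster 0 the shares were 32.1% in BSA and 11.1% in FGF8, against 25.2% of all its cells in both libraries. In clusters 1 and 5 the share was below that of all cells in BSA and above it in FGF8. In cluster 10 it was above in BSA and below in FGF8. No direction was read from these shares. Of the pericyte or smooth muscle-like cells with a Pdgfa UMI, 96.9% and 97.5% also had a Pdgfrb UMI and 3.7% and 11.7% a Pdgfra UMI, without thinning. Of all pericyte or smooth muscle-like cells, 93.6% and 96.5% had a Pdgfrb UMI and 4.28% and 10.9% a Pdgfra UMI. After thinning, 61.0% and 60.9% of those with a Pdgfa UMI had a Pdgfrb UMI, near the 63.0% and 63.8% of all. The A chain, a ligand of the alpha receptor, was thus most abundant in cells whose own receptor UMIs were almost wholly of the beta type.

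In the types where a receptor was rare, several members were past 2-fold on few UMIs. Macrophage-like cells had 2 of 6 members past 2-fold, against 13.1% of all genes: Pdgfra at 8.32 and 23.5 CPM, a log2 ratio of 1.5 (1.00 to 2.03), and Pdgfrb at 5.97 and 13.4 CPM, a ratio of 1.16 (0.56 to 1.81). After thinning, a Pdgfra UMI was found in 0.610% and 2.47% of macrophage-like cells, where keratinocyte-like cells had 1.72% and 1.91%. The FGF8 interval of the macrophage-like cells (1.45% to 3.93%) held the keratinocyte-like value. Pdgfra was likewise past 2-fold in Schwann-like cells, the 1 member of 6 there against 7.81% of all genes, with 14 and 62 UMIs. It was the 1 of 6 in pericyte or smooth muscle-like cells too, against 7.76%, with 25 and 73 UMIs. The summed fibroblast markers in these types were 2093 and 2533 CPM (macrophage-like), 6577 and 6096 CPM (Schwann-like), and 6790 and 7001 CPM (pericyte or smooth muscle-like), and the part of free RNA in the receptor values was not tested.

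Other types gave counts of the same kind. Neutrophil-like cells had 4 of 5 tested members past 2-fold, 3 higher and 1 lower in FGF8, against 23.0% of all genes, with Pdgfa and Pdgfc at 0 UMIs in 158 BSA cells and at 41 and 49 UMIs in 536 FGF8 cells. Erythroid-like cells had 3 of 5, 1 higher and 2 lower, against 29.8%, with at most 42 UMIs of any of these in a library. Keratinocyte-like cells had 3 of 6, all higher, against 15.8%, with at most 42 UMIs. The T or NK or monocyte or dendritic-like cells had 3 of 5, 1 higher and 2 lower, against 10.8%, with 3 to 14 UMIs. The summed fibroblast markers in neutrophil-like cells were 4540 and 6063 CPM, at median depths of 3214 and 2410 UMIs. No order was read from levels at such counts, and the part of free RNA in them was not tested.

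A list of 55 further genes of the pathway, from ligand processing to early response, was read in fibroblast-like cells. All were tested; 27 were higher and 28 lower in FGF8, 7 were past 2-fold upward and 0 downward, and the median log2 ratio was -0.04, where the median of all genes was -0.10. Of all genes 6.52% were past 2-fold upward and 6.83% downward. The proteases that free or activate the ligands split evenly, 3 of 6 higher. Plau, the urokinase that activates the D chain, was at 7.03 CPM in BSA and 22.6 CPM in FGF8, a log2 ratio of 1.68 (1.46 to 1.91), and Pcsk6, a proprotein convertase, was at 18.7 and 11.7 CPM, a ratio of -0.68 (-0.85 to -0.51). All 4 binding partners and co-receptors were lower over the class, by most for Sparc, a matrix protein that binds PDGF, at 11040 and 6435 CPM, a ratio of -0.78 (-0.79 to -0.77). Within clusters these genes split, with 2 higher and 2 lower in each of clusters 0, 1 and 5, and 1 higher and 3 lower in cluster 10.

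Among the adaptors, kinases and enzymes bound by the receptors, 7 of 24 were higher and 17 lower, with a median of -0.16. Within clusters 0, 1, 5 and 10 the medians were nearer 0, at -0.08, -0.07, -0.05 and -0.06, with 10, 5, 10 and 10 of 24 higher. The lowest were the regulatory subunits of phosphoinositide 3-kinase: Pik3r1 at 103 and 57.3 CPM, a log2 ratio of -0.84 (-0.91 to -0.77), and Pik3r2 at 37.5 and 23.97 CPM, a ratio of -0.64 (-0.76 to -0.53). Of the 9 attenuators 6 were higher, with a median of 0.05.

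The genes known as early responses to PDGF in cultured fibroblasts, which other growth factors and cytokines also induce, stood at the upper end. Of these 12 genes 11 were higher in FGF8 and 5 were past 2-fold, with a median of 0.81, where 42.9% of all genes were higher and 6.52% past 2-fold upward. Within clusters 0, 1, 5 and 10 the medians were smaller, at 0.42, 0.70, 0.49 and 0.75. There 10, 12, 11 and 12 genes were higher, and 3, 4, 2 and 3 were past 2-fold upward. The chemokine genes Ccl7, at 91.6 and 316 CPM, and Ccl2, at 108 and 350 CPM, had log2 ratios of 1.79 (1.73 to 1.85) and 1.69 (1.64 to 1.75). The AP-1 gene Fosl1, at 14.4 and 47.6 CPM, had a ratio of 1.72 (1.57 to 1.88). The exception was Egr1, at 87.9 and 79.9 CPM, a ratio of -0.14 (-0.21 to -0.07). Each of the 8 genes named by rank had the same direction in female-called and male-called cells. Within clusters, Ccl2 had ratios of 1.40, 1.52, 0.66 and 1.42 in clusters 0, 1, 5 and 10, so unlike Pdgfd its direction did not depend on the mix of clusters. Sparc was lower in the same clusters, at -0.96, -0.19, -0.24 and -0.20.

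**Figure D5:**
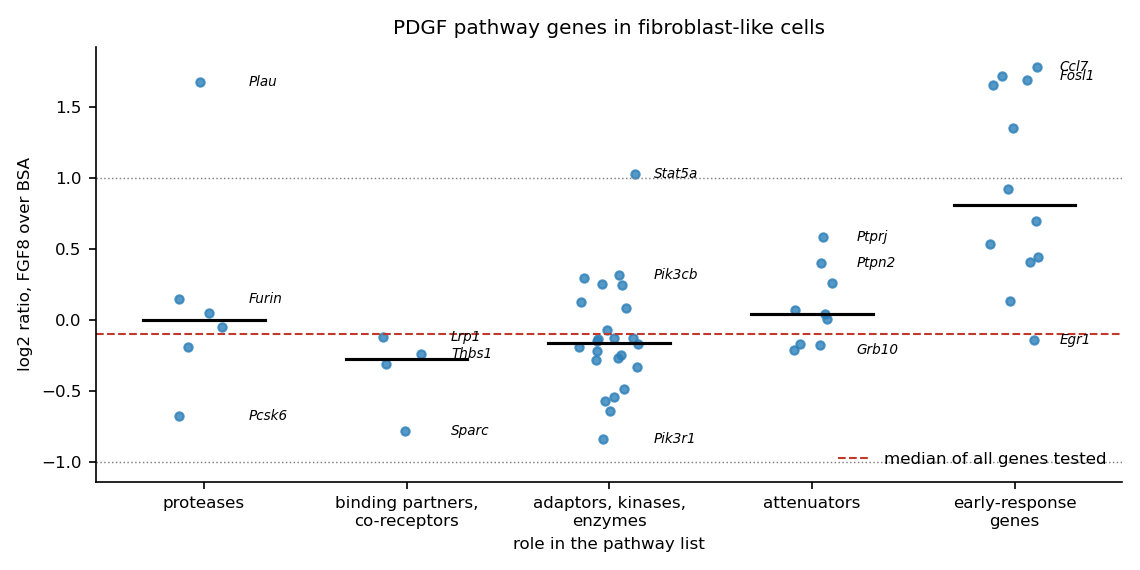
Log2 ratio, FGF8 over BSA, of the 55 pathway genes in fibroblast-like cells by role, each point a gene; the dashed line is the median of all genes (-0.10) and dotted lines mark 2-fold. Early-response genes lie highest (median 0.81), and the adaptors and enzymes lie lower (median -0.16).

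The same list in pericyte or smooth muscle-like cells, which carry the most beta receptor, had 41 of 55 genes higher, where 52.4% of all genes were. The median was 0.20 where all genes had 0.02. Of the early-response genes 11 of 12 were higher there, with a median of 0.59. Endothelial cells, with little message of either receptor, had 42 of 54 genes higher and a median of 0.41. Of all genes there 51.0% were higher, with a median of 0.01. The 12 early-response genes were all higher in endothelial cells, with a median of 1.02. Of these 7 were past 2-fold, against 5.80% of all genes past 2-fold upward. The endothelial class held 48 lymphatic and 16 shallow cells in BSA but 10 lymphatic cells in FGF8. The list was not read in the blood endothelial sub-cluster alone. In chondrocyte-like cells, where the Pdgfa and Pdgfc ratios were large, 28 of 55 were higher and the median was 0.00. Of all genes there 46.4% were higher, with a median of -0.05. Of the early-response genes 5 of 12 were higher there, with a median of -0.36.

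Over the 11 cell types in both libraries, 22 points of log2(CPM + 10), the genes whose pattern was most like each member were read as a description. The points share libraries, depth and free RNA. For Pdgfa these were Accsl (Pearson r = 0.896), Serpine2 (0.886) and Mthfd2l (0.878), and for Pdgfb Plxnd1 (0.916), Scarf1 (0.916) and Tppp (0.914). For Pdgfc they were Enpp1 (0.930), Dnm1 (0.916) and Clmp (0.905), and for Pdgfd Fam174b (0.897), Cd34 (0.893) and Enpp3 (0.884). The receptors had closer partners, with Sfrp2 (0.968), Lox (0.965) and Ccn5 (0.958) for Pdgfra and Ebf2 (0.965), Ednra (0.965) and Cygb (0.964) for Pdgfrb. Among the members themselves, Pdgfa had r = 0.51 with Pdgfrb and 0.03 with Pdgfra.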

How the data were processed

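Cells of each pooled library were captured with 10x 3′ chemistry, and the authors deposited raw counts, 1 UMI count per gene and barcode, made with Cell Ranger 9.0.0. The submitters' processing notes name GRCm39 and mm10 as well as Seurat. Gene positions were read from the GRCm39 annotation (GENCODE). The filters described in the study had not been applied to the matrices and were applied here: cells needed over 200 genes but under 7500, and mitochondrial UMIs below 15%.

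Cells were clustered with Seurat 5.3.0 and sctransform 0.4.2 (R 4.3.3): 3000 variable features, of which 2994 remained without the 6 PDGF genes, CCA integration, 30 principal components, seed 42 and resolution 0.5, where the study used 0.05. Names came from marker lists: a score above 4 on a list (lists within 1 of the best share the name), or, for connective tissue, tenocyte markers among the 10 leading genes, or otherwise at least 8 of 10 fibroblast markers detected. These thresholds were set after seeing the data. Cell types needed 50 cells per library. Mast-like cells (38 in BSA) and the unnamed clusters 6 and 7, which were shallow, were not compared.

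UMIs were summed per library and type and given per 1000000 (CPM), with exact Poisson intervals for levels, Clopper-Pearson intervals for shares, and exact conditional intervals for ratios (scipy 1.17.1, Python 3.11.15). Past 2-fold means an absolute log2 ratio of at least 1 for genes whose UMIs in both libraries summed to at least 10; a count of 0 was set to a floor of 3 counts per library. For shares, each cell was also thinned to 2000 UMIs, which left out 343 BSA and 781 FGF8 cells. Sex was called from Xist and 4 Y-linked genes. Scrublet (scanpy 1.11.5) called 0 doublets in both libraries and was taken not to have worked, so an alternative removed the 96 BSA and 389 FGF8 cells with the highest scores. The computation was tested on simulated counts.

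The text names all 6 members, the 4 highest and 4 lowest of the pathway list with at least 100 UMIs, and the 3 genes of most similar pattern. Egr1 and the sub-clusters were chosen after their values were seen. The members and lists were chosen with earlier results of these data known. Pdgfa, Pdgfb, Pdgfc, Pdgfd and Pdgfra overlap genes on the opposite strand; whether counting used strand is not given in the sources used here.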

Additional observations from a re-analysis of the deposited data

Results flagged for a closer look

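The following differences were not tested, since each condition was 1 library. For 3 gene and cell type pairs the log2 ratio had opposite signs in female-called and male-called cells with counting intervals that left out 0. Pdgfra in chondrocyte-like cells was 0.75 in female-called cells (29 and 42 UMIs) and -2.68 in male-called cells (26 and 23 UMIs, from 15 BSA and 80 FGF8 cells). Pdgfc in cluster 0 was -0.29 and 0.61, and Pdgfd in cluster 1 was -0.29 and 0.33.

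In 4 pairs with at least 100 UMIs over both libraries, the ratio had the opposite sign to the fibroblast-like cells, with both intervals leaving out 0; pairs with fewer UMIs, such as Pdgfra in Schwann-like cells (1.54) and in pericyte or smooth muscle-like cells (1.22), were not considered. Pdgfra and Pdgfrb in macrophage-like cells had log2 ratios of 1.5 and 1.16, Pdgfd in tenocyte-like cells had 0.82, and Pdgfa in Schwann-like cells had -0.17.

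A signal was also read in barcodes with 7500 or more detected genes, 161 in BSA and 274 in FGF8, which the comparisons leave out. These barcodes were not split by cell type, and only members with an interval wholly above 0 were flagged. The members not flagged were Pdgfb at 19.7 and 16.1 CPM, Pdgfd at 24.6 and 24.8, Pdgfra at 125 and 119, and Pdgfrb at 63.1 and 53.6. Pdgfa was at 56.8 and 100.7 CPM there, a log2 ratio of 0.82 (0.70 to 0.95), and Pdgfc at 57.9 and 82.9 CPM, a ratio of 0.52 (0.39 to 0.65).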

How the results depend on the processing

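No paired analysis was possible because each condition was 1 library. The count of members past 2-fold in fibroblast-like cells was 1, Pdgfa. It was 0 at resolution 0.05, where the Pdgfa log2 ratio was 0.97, and 0 with the same cluster weights in both libraries. In female-called cells the count was again 1, but the member was Pdgfd (-1.30) and not Pdgfa (0.92). The median of the pathway list, -0.04, was 0.051 with the median of all genes set to 0. With log2(CPM + 1) in place of log2(CPM + 10), 7 of the 18 genes of similar pattern were named again.

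Ratios that changed sign included Pdgfrb in fibroblast-like cells (0.054 after thinning) and Pdgfa in pericyte or smooth muscle-like cells (-0.014, female-called). Others were Pdgfb in endothelial cells (-0.32, male-called) and Pdgfd there (-0.12, male-called, and -0.25 in the blood endothelial sub-cluster). With the same cluster weights in both libraries, Pdgfd (0.12) and Pdgfra (0.013) in fibroblast-like cells changed sign too. Pdgfrb in pericyte or smooth muscle-like cells (-0.02) lay between -0.16 and 0.07, and Pdgfb in endothelial cells (0.66) between -0.32 and 2.08. Across all 12 alternatives Pdgfa in fibroblast-like cells ranged from 0.54 to 1.85, Pdgfc there from 0.23 to 0.64, and Pdgfc in chondrocyte-like cells, over 11 alternatives, from 1.53 to 2.86. The causes were not tested.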
